A study of Caenorhabditis elegans with 36 samples.

Results

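Whole *Caenorhabditis elegans* worms labelled *glp-1* at 25 C were compared with wild type worms labelled 25 C by RNA sequencing. The 12 libraries, 6 of each label, were taken from 36 libraries of 6 groups by their genotype and temperature labels. The genotype label of the first group is *glp-1*, for which the methods of the study list the allele *glp-1(e2141)*, and the wild type is the strain N2. Transcripts of the germ line go against this label, as given below. Both groups are labelled prefertile young adults grown at 25 C and whole worm, while the growth protocol shared by all samples names 20 degrees and the extraction protocol names day 1 adults. The labels add that worms came from eggs laid over a limited period. The comparison asks how transcripts of this strain differ from those of wild type worms at the same labelled temperature, and it covered 16513 of 46093 genes, those that reached 10 counts in 6 or more of these libraries.

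GLP-1 is a receptor of the Notch family that keeps the stem cells of the germ line dividing. The ligand LAG-2, made by the distal tip cell, leads to cleavage of the receptor by gamma-secretase, after which its intracellular part acts with the DNA-binding protein LAG-1 and with SEL-8 on targets such as *lst-1* and *sygl-1*. FBF-1 and FBF-2 bind RNA downstream and keep cells mitotic, while GLD-1, GLD-2, GLD-3 and NOS-3 promote entry into meiosis. The allele *e2141* is a temperature-sensitive missense change, and worms raised at the restrictive temperature have almost no germ cells and live long.

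The label was first set against the transcripts. *glp-1* (WBGene00001609, chromosome III, 9092241 to 9099698 in WBcel235) had a lowest, median and highest level of 125, 147 and 207 CPM, counts scaled to library size, in *glp-1*-labelled libraries, against 103, 142 and 200 CPM in wild type 25 C libraries. The groups overlapped, with a log2 fold change of 0.10 ± 0.18 (SE, adjusted p = 0.709), and a missense allele need not change the level of its transcript. With the molting level of each library in the fit, an alternative described below, the log2 fold change was 0.29 (adjusted p = 0.00564). Transcripts that mark germ cells were present in all 12 libraries. The summed level of 24 germ line genes was 2534 to 3299 CPM in *glp-1*-labelled libraries and 2937 to 3902 CPM in wild type 25 C libraries. When all 36 libraries were scaled together, this sum had a median of 2690 CPM in *glp-1*-labelled, 145 CPM in *ife-2*-labelled and 3170 CPM in wild type 25 C libraries. The *ife-2* transcript itself had a median of 61.4 CPM in *glp-1*-labelled, 62.2 CPM in *ife-2*-labelled and 3.46 CPM in *eat-2*-labelled libraries. These values go against the *glp-1* and *ife-2* labels, and whether labels were exchanged between groups was not tested. The groups are therefore called by their labels, and no direction below is read as the effect of a *glp-1* mutation or of losing the germ line.

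Counts per library totalled 40804493 to 45607284 in *glp-1*-labelled and 37391231 to 45514002 in wild type 25 C libraries. Ribosomal RNA genes took 1.35% to 6.42% of counts in *glp-1*-labelled and 4.15% to 10.3% in wild type 25 C libraries, and the part of this difference in the results was not tested. The first principal component, 43.7% of the variance, separated the groups. The second, 35.4%, ran within both groups, with *glp-1*-labelled replicates 3, 5 and 6 and wild type replicates 1 and 3 on one side of zero. Genes of the larval molt and of yolk moved along it. The summed level of the molting list was 2629, 2661, 815, 1999, 792 and 1629 CPM in *glp-1*-labelled replicates 1 to 6, against 479, 1875, 506, 2115, 2090 and 1413 CPM in wild type 25 C replicates 1 to 6. The 6 yolk protein genes ran the other way, between 33160 and 105700 CPM in *glp-1*-labelled and between 34860 and 85120 CPM in wild type 25 C libraries. Both sums overlapped between the groups, so libraries of each label differed among themselves in these transcripts, and none of the 6 yolk genes passed the test. Adding the molting level of each library to the fit, an alternative chosen after seeing the data, called 3330 genes higher and 3431 lower.

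**Figure D1:**
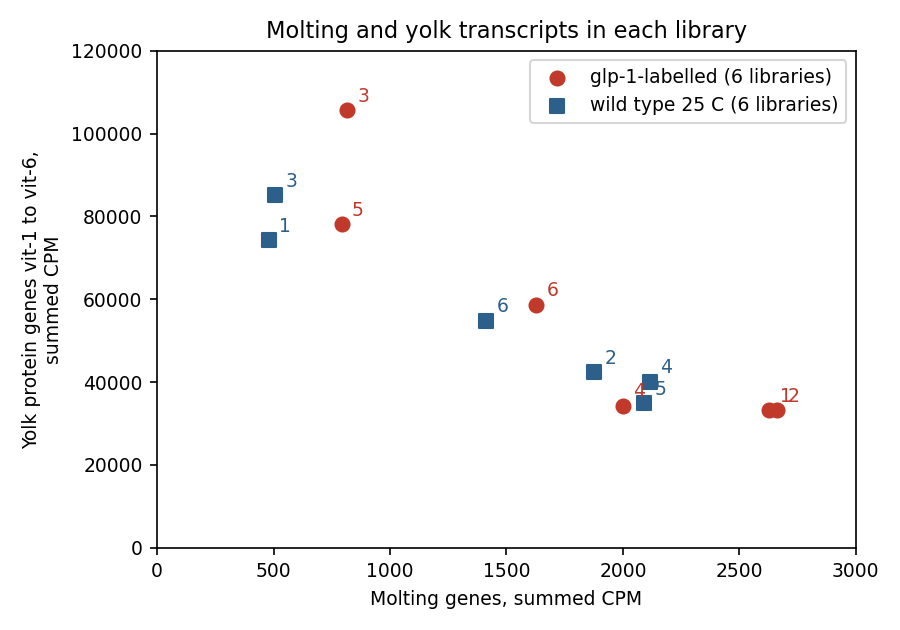
Summed CPM of the molting list (x axis) and of the yolk protein genes (y axis) in each of the 12 libraries, numbered by replicate (red circles, glp-1-labelled, and blue squares, wild type 25 C). Glp-1-labelled replicates 3 and 5 and wild type 25 C replicates 1 and 3 have the lowest molting sums, 479 to 815 CPM, and the other libraries lie between 1413 and 2661 CPM.

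In all, 3775 of 16513 genes (22.9%) passed an adjusted p of 0.01 in edgeR's quasi-likelihood test, 1978 (12%) higher and 1797 (10.9%) lower in *glp-1*-labelled worms. Of these, 869 (5.26%) were higher and 284 (1.72%) lower by at least 2-fold. The 12 libraries did not overlap between the groups for 3367 genes (20.4%), and the median log2 fold change of all tested genes was 0.02. Scaling by total counts alone moved that median to 0.21 and turned the split to 3160 higher and 857 lower, so the directions of small changes are relative to the scaling used. In whole worms, fewer cells of a type and less RNA per cell cannot be told apart.

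Most of the GLP-1 Notch pathway did not pass the test. Of 19 tested genes of this list, 2 (10.5%) were higher and 3 (15.8%) lower in *glp-1*-labelled worms. Of all tested genes, 12% were higher and 10.9% lower. *fbf-2* had 21.9, 23.7 and 27.2 CPM (lowest, median, highest) in *glp-1*-labelled libraries, against 38.5, 40.6 and 42.9 CPM in wild type 25 C libraries. The groups did not overlap, and the log2 fold change was -0.74 ± 0.07 (SE, adjusted p = 8.77e-06). Its near-copy *fbf-1* fell by 0.42 on the log2 scale and *nos-3* by 0.37, and reads shared between the *fbf* paralogs may be split uncertainly by the counting. The *nos-3* call was lost when any of 9 of the 12 libraries was left out. The Notch targets *sygl-1* and *lst-1* had log2 fold changes of -0.54 ± 0.21 and -0.15 ± 0.15 and were not called. The receptor *lin-12* was at 6.22 to 9.95 CPM in *glp-1*-labelled and 2.29 to 6.03 CPM in wild type 25 C libraries, a log2 fold change of 0.71 that missed the threshold (adjusted p = 0.0162). The 2 genes that were higher, *epn-1* (epsin, which acts in uptake of Notch ligands, log2 fold change 1.31 ± 0.08) and *sel-12* (presenilin, the protease of gamma-secretase, 1.17 ± 0.20), are also the 2 members on the X chromosome. With the molting level in the fit 7 members were higher, *glp-1*, *lin-12*, *lag-1*, *aph-1* and *apx-1* among them, at log2 fold changes of 0.28 to 0.57 for these 5. With total counts as the scale, or in the fit of all 36 libraries, 1 member was lower.

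Germ line transcripts were present, with a summed level that overlapped between the groups. Of the 24 germ line genes, 1 (4.17%) was higher, 6 (25%) were lower and 17 were not called. Of all tested genes, 12% were higher and 10.9% lower. The median log2 fold change of the list was -0.21. Apart from changes of threshold and of the filter on low counts, the alternatives gave 0 to 4 higher and medians of -0.27 to -0.03. *pgl-1*, a constitutive component of P granules, the RNA-rich bodies of germ cells, had 240, 303 and 342 CPM in *glp-1*-labelled libraries, against 372, 436 and 503 CPM in wild type 25 C libraries (log2 fold change -0.56 ± 0.09). *csr-1*, the Argonaute that protects germ line transcripts, fell by 0.59 and the chromosome axis gene *htp-1* by 0.62. None of these 3 genes overlapped between groups. The count of 6 dropped to 3 when *glp-1*-labelled replicate 1, 2 or 6 or wild type replicate 6 was left out, and was 3 with total counts as the scale and 2 in the fit of all 36 libraries. *csr-1* and *alg-5* share exon sequence with a neighbour on the same strand, so some of their reads may belong to it. Among 19 Argonautes, which carry small RNAs, 2 (10.5%) were higher and 5 (26.3%) lower. *wago-4*, which passes small RNAs to the next generation, had 66.3 to 81.1 CPM in *glp-1*-labelled and 141 to 184 CPM in wild type 25 C libraries (log2 fold change -1.11 ± 0.09). *alg-5* fell by 1.21.

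Oocyte and sperm transcripts did not move alike. None of the 29 oocyte and eggshell genes was called by edgeR, although their summed level spanned 5110 to 10280 CPM in *glp-1*-labelled and 4858 to 12800 CPM in wild type 25 C libraries and so varied greatly within each label. The yolk receptor gene *rme-2*, for example, was at 256 to 475 CPM in *glp-1*-labelled and 263 to 728 CPM in wild type 25 C libraries (log2 fold change -0.41 ± 0.25, adjusted p = 0.216). Of 92 sperm genes, 52 were lower and none higher, with a median log2 fold change of -0.52, against 10.9% lower among all tested genes. Their summed level was 3456 to 4734 CPM in *glp-1*-labelled and 5464 to 6262 CPM in wild type 25 C libraries, without overlap. With total counts as the scale 32 were lower, and in the fit of all 36 libraries 30. That fit holds an *osm-5*-labelled library that stands apart, with a sperm sum of 48900 CPM where the median of its group is 5360 CPM. Wild type 20 C libraries had a median sum of 4260 CPM when all 36 libraries were scaled together, beside 3630 CPM in *glp-1*-labelled and 5430 CPM in wild type 25 C libraries.

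The major sperm protein genes led the list. *msp-63*, which encodes a copy of the cytoskeletal and signalling protein of nematode sperm, had 0.843 to 1.83 CPM in *glp-1*-labelled and 3.42 to 4.99 CPM in wild type 25 C libraries (log2 fold change -1.58 ± 0.18). Of 30 tested *msp* genes, 27 were lower and none higher, against 10.9% lower among all tested genes. These genes are near-identical copies, so the split of reads among them is uncertain and they are best read as a group. The small nematode-specific peptide genes of the *nsp* series (*nspa* to *nspe*) showed 30 of 46 lower and 3 higher, with a median of -0.77. *nspc-17* was at 1.03 to 1.63 CPM in *glp-1*-labelled and 6.25 to 9.36 CPM in wild type 25 C libraries (log2 fold change -2.49 ± 0.16), and *nspd* genes belong to both lists. In the fit of all 36 libraries 11 were lower and none higher. That fit holds an *osm-5*-labelled library with an *nsp* sum of 28400 CPM, where the median of its group is 685 CPM. The *nsp* list was added after values had been seen.

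Genes on the X chromosome were higher more often than genes elsewhere. Of 2354 tested X genes, 601 (25.5%) were higher and 89 (3.78%) lower in *glp-1*-labelled worms, with a median log2 fold change of 0.28. On the autosomes 1365 of 14031 (9.73%) were higher and 1703 lower, with a median of -0.02. Chromosome V came next with 15.3% higher, and chromosomes I, II, III and IV had 6.56% to 9.34% higher. Leaving out the yolk protein genes, the X chromosome took a median of 11.4% and at most 11.8% of protein-coding counts in *glp-1*-labelled libraries, against 7.99, 9.17 and 9.99% (lowest, median, highest) in wild type 25 C libraries. The groups did not overlap. In the other groups the median share was 8.70% in *osm-5*-labelled, 9.01% in *eat-2*-labelled, 8.48% in wild type 20 C and 16% in *ife-2*-labelled libraries. Across the alternatives tried, apart from the changes of threshold and of the filter on low counts, 452 to 783 X genes were called higher and 48 to 211 lower.

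**Figure D2:**
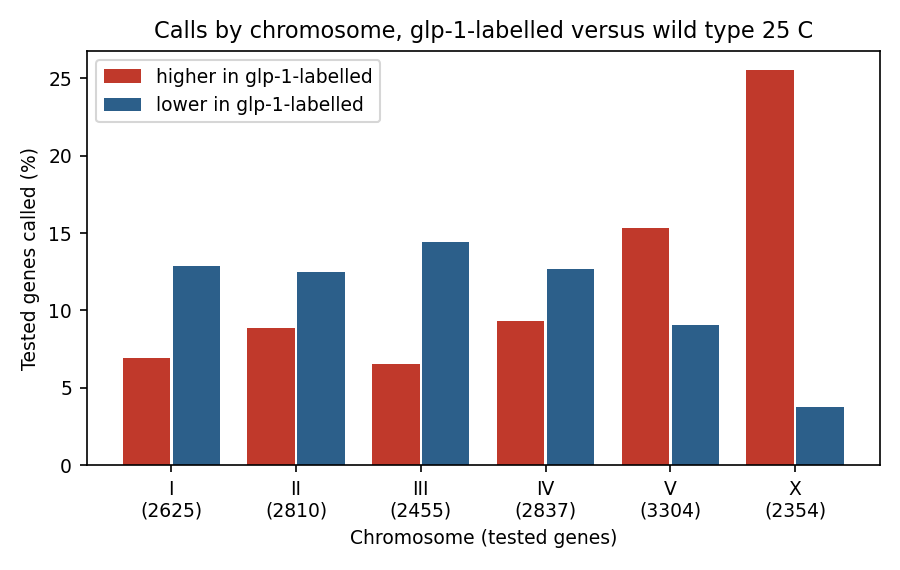
Percentage of tested genes called higher (red) and lower (blue) in glp-1-labelled than in wild type 25 C worms, by chromosome, with the number of tested genes under each name. The X chromosome has 25.5% higher and 3.78% lower, while chromosomes I to IV each have more genes lower than higher.

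*ife-2*-labelled and wild type 20 C libraries, which share no library with this comparison, were used to class the same genes, since the *ife-2*-labelled libraries had little germ line signal. Of 200 X genes at least 2-fold lower in *ife-2*-labelled than in wild type 20 C worms, 71 (35.5%) were higher and 2 lower in *glp-1*-labelled than in wild type 25 C worms, with a median log2 fold change of 0.84. Of 5170 autosomal genes of the same class, 4.06% were higher and 15.9% lower, with a median of -0.18. Of 1093 X genes in neither class, 34.7% were higher and 1.65% lower, with a median of 0.42, so the share called higher was close to that of the low class. Among X genes at least 2-fold higher in *ife-2*-labelled worms, 14.2% were higher and 6.50% lower, with a median of 0.08. The X genes of the class low in *ife-2*-labelled worms thus had the highest median of the 6 classes. The classes rest on libraries that also differ in genotype label and temperature.

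**Figure D3:**
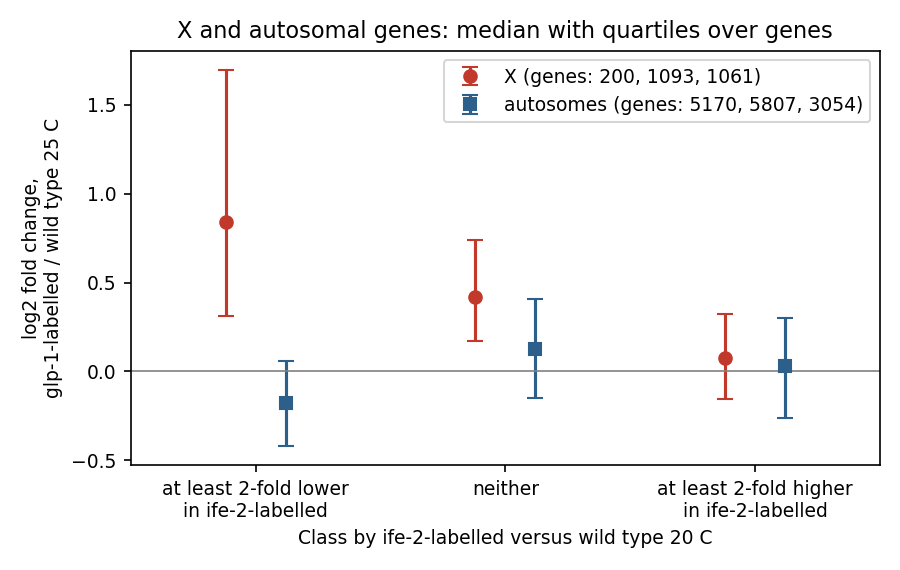
Log2 fold change of glp-1-labelled over wild type 25 C (y axis) for X genes (red circles) and autosomal genes (blue squares), by their class in ife-2-labelled against wild type 20 C worms (x axis). Points are medians and bars quartiles over genes, and X genes low in ife-2-labelled worms have a median of 0.84 where autosomal genes of that class have -0.18.

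The X genes with the largest rises in this class, which were picked after their values had been seen, include components of germ granules. *meg-4* (WBGene00016485, X, 1682954 to 1686419) had 109, 131 and 176 CPM in *glp-1*-labelled libraries, against 5.90, 10.4 and 19.2 CPM in wild type 25 C libraries. The log2 fold change was 3.53 ± 0.29 (adjusted p = 1.53e-06), with no overlap. Its partner *meg-3*, whose protein builds the outer phase of embryonic P granules with MEG-4, had 127 to 222 CPM in *glp-1*-labelled and 11.6 to 44.4 CPM in wild type 25 C libraries (2.67 ± 0.31). *meg-2* rose by 1.81 on the log2 scale. With all 36 libraries scaled together, *meg-4* had medians of 121 CPM in *glp-1*-labelled, 0.0433 CPM in *ife-2*-labelled, 15.8 CPM in *osm-5*-labelled, 9.98 CPM in *eat-2*-labelled, 9.84 CPM in wild type 25 C and 18.1 CPM in wild type 20 C libraries.

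Several chromatin genes of the X chromosome moved the same way. *lin-15B* (WBGene00023497, X, 15726123 to 15732025), a synMuv B gene that represses germ line genes in the soma, had 91.3, 116 and 171 CPM in *glp-1*-labelled libraries, against 22.2, 27.8 and 36.3 CPM in wild type 25 C libraries (log2 fold change 2.18 ± 0.17). It shares exon sequence on the same strand with a neighbouring gene, *lin-15A*, whose log2 fold change was 2.02 ± 0.16, so reads of the overlap cannot be assigned with certainty. *spat-3*, a RING finger protein of the Polycomb-like complex, had a median of 266 CPM and a highest level of 359 CPM in *glp-1*-labelled and 31.7 to 66.5 CPM in wild type 25 C libraries (2.58 ± 0.17). *lsd-1*, a histone demethylase, rose by 1.93, the linker histone *hil-3* by 1.78 and *csb-1*, the homologue of a human repair factor of transcribed genes, by 3.17. The *mes* genes, which keep the X chromosome quiet in the germ line, lie on autosomes. *mes-3* was called at 0.42 ± 0.11, a call lost without any of 9 of the 12 libraries (wild type replicates 2 to 6 and *glp-1*-labelled replicates 3 to 6), and *mes-2*, *mes-4* and *mes-6* had log2 fold changes of 0.21, 0.08 and -0.40 and were not called.

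Housekeeping and metabolic genes of the X chromosome were among the largest gains in absolute level. *rpl-11.2*, a ribosomal protein gene, had 1400 to 1660 CPM in *glp-1*-labelled and 487 to 750 CPM in wild type 25 C libraries (log2 fold change 1.27 ± 0.10). Its autosomal paralog *rpl-11.1* went the other way, with 683 to 888 CPM in *glp-1*-labelled and 939 to 1250 CPM in wild type 25 C libraries (-0.41 ± 0.08). *pqn-65*, which encodes a glutamine- and asparagine-rich protein, rose by 2.43 and the uncharacterised *F39C12.1* by 2.04. *acly-1*, an ATP citrate lyase that makes acetyl-CoA for lipid synthesis, rose by 1.47, and *pccb-1*, a subunit of propionyl-CoA carboxylase, by 1.19. All 6 of the largest gains of mean CPM among called protein-coding genes, which also include *spat-3* and the chaperone *hsp-3*, lie on the X chromosome. The groups overlapped for *hsp-3*, and its call (0.41 ± 0.10, adjusted p = 0.00674) was lost without any of 8 libraries, wild type replicates 1, 2, 3 and 6 and *glp-1*-labelled replicates 1, 2, 4 and 6.

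The genes that set dosage compensation, the process that lowers transcription from both X chromosomes of hermaphrodites, were looked at because of this pattern. Of 12 listed, 4 (33.3%) were higher and none lower, against 12% higher among all tested genes and 25.5% among X genes. Of the 4, 2 lie on X. With total counts as the scale or with the molting level in the fit, 7 were higher. *dpy-27*, a condensin subunit of the dosage compensation complex, had 50.2 to 58.8 CPM in *glp-1*-labelled and 27.2 to 41.9 CPM in wild type 25 C libraries (log2 fold change 0.69 ± 0.10). *sdc-3*, which recruits the complex to X, had 81.8 CPM or more in *glp-1*-labelled and at most 57 CPM in wild type 25 C libraries (1.43 ± 0.29). *sdc-1* rose by 1.35 and *xol-1*, the switch that is on in male embryos, by 1.34. The male-promoting signal gene *her-1* was at 0.927 to 1.64 CPM in *glp-1*-labelled and 0.087 to 0.447 CPM in wild type 25 C libraries (2.21 ± 0.28).

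Genes for both kinds of ribosome were lower as whole groups. Of 69 mitochondrial ribosomal protein genes, 66 were lower and none higher, against 10.9% lower among all tested genes. These 69 genes had a median log2 fold change of -0.54. Their sum was 2082 to 2386 CPM in *glp-1*-labelled and 2994 to 3440 CPM in wild type 25 C libraries. *mrpl-45* had 28.6, 31.1 and 35.6 CPM in *glp-1*-labelled libraries, against 49.3, 57.7 and 65.9 CPM in wild type 25 C libraries (log2 fold change -0.86 ± 0.08). Of 81 cytosolic ribosomal protein genes, 68 were lower and 1, *rpl-11.2*, higher, with a median of -0.43. Their sum was 70850 to 89280 CPM in *glp-1*-labelled and 98750 to 113700 CPM in wild type 25 C libraries. With total counts as the scale, 31 cytosolic ribosomal genes were lower and the medians were -0.36 for the mitochondrial and -0.25 for the cytosolic list. In the fit of all 36 libraries 38 mitochondrial ones were lower. That fit holds an *osm-5*-labelled library with a mitochondrial ribosome sum of 16200 CPM, where the median of its group is 2810 CPM.

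Levels in wild type 20 C worms put these sums in context. With all 36 libraries scaled together, the cytosolic ribosome list had a median of 76800 CPM in *glp-1*-labelled, 100000 CPM in wild type 25 C and 73300 CPM in wild type 20 C libraries, and the mitochondrial list 2090 CPM in *glp-1*-labelled, 3050 CPM in wild type 25 C and 2430 CPM in wild type 20 C libraries. The *glp-1*-labelled libraries thus lay near the wild type 20 C libraries in the first list and below them in the second.

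Translation factors and the respiratory chain followed. Of 40 translation factor genes, a list added after values had been seen, 25 were lower and 2 higher. *eef-1A.1*, the elongation factor that carries aminoacyl-tRNA, had the largest loss of mean CPM of all, with 5870 to 7770 CPM in *glp-1*-labelled and 10300 to 12100 CPM in wild type 25 C libraries (log2 fold change -0.71 ± 0.08). The 2 that were higher, *ife-2* (0.83 ± 0.09) and *ife-4* (0.58 ± 0.10), encode cap-binding proteins and lie on X. Of 43 nuclear respiratory chain genes, 29 were lower and 4 higher, with a median of -0.31. *atp-2*, the beta subunit of ATP synthase, had 1420 to 1760 CPM in *glp-1*-labelled and 2670 to 2880 CPM in wild type 25 C libraries (-0.74 ± 0.06). All 4 that were higher lie on X, among them *sdha-1* of complex II (0.82 ± 0.08) and *gas-1* of complex I (0.60 ± 0.06). With total counts as the scale only 8 translation factors and 6 respiratory chain genes were lower. Of 33 proteasome genes 12 (36.4%) were lower and none higher, against 10.9% lower among all tested genes. The proteasome count dropped to 7 without *glp-1*-labelled replicate 2, 4 or 6 or wild type replicate 3 or 6. It was 2 with total counts as the scale and 21 with scaling by upper quartiles. With all 36 libraries scaled together, median sums were taken in *glp-1*-labelled, wild type 25 C and wild type 20 C libraries. They were 18900, 25800 and 20400 CPM for translation factors, 11200, 14200 and 11600 CPM for the respiratory chain and 4610, 5550 and 4780 CPM for the proteasome. The *glp-1*-labelled medians of these lists were thus nearer to wild type 20 C than to wild type 25 C.

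**Figure D4:**
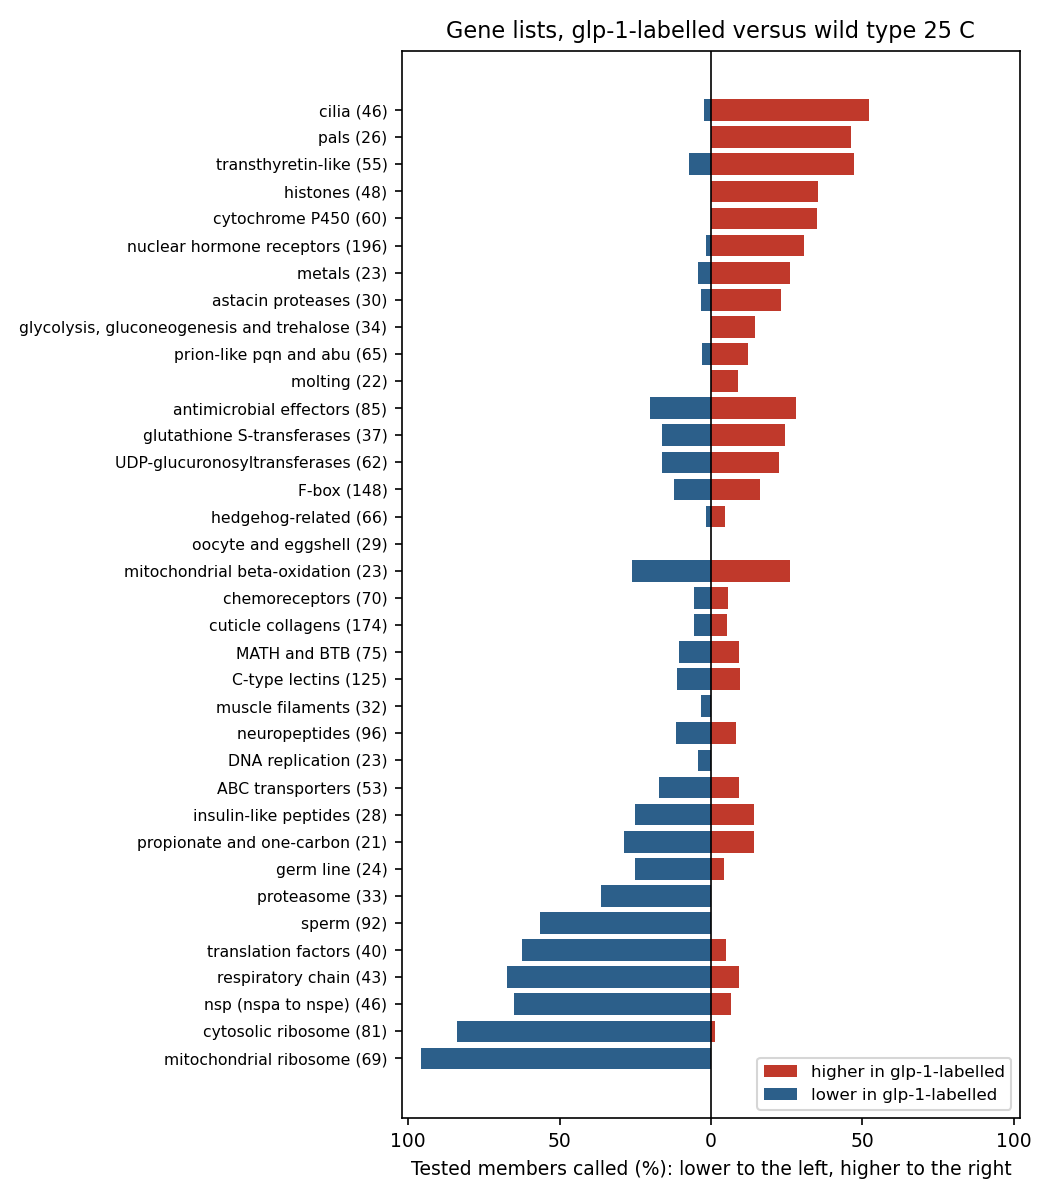
Percentage of tested members called higher (red, to the right) and lower (blue, to the left) in glp-1-labelled than in wild type 25 C worms for each list with at least 20 tested members, whose number stands in brackets. Mitochondrial ribosome genes are 95.7% lower and cilia genes 52.2% higher, while none of the oocyte and eggshell genes was called.

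Genes of sensory cilia were higher as a group. Of 46 tested, 24 were higher and 1 lower, with a median log2 fold change of 0.87, against 12% higher among all tested genes. *osm-5* (WBGene00003885, X, 2984263 to 2991478), the IFT88 homologue that carries cargo along the cilium, had 4.61, 5.43 and 6.42 CPM in *glp-1*-labelled libraries, against 0.744, 0.994 and 1.5 CPM in wild type 25 C libraries. The log2 fold change was 2.36 ± 0.16 (adjusted p = 2.38e-07), and no libraries overlapped. *daf-19*, the RFX factor that turns on ciliary genes, rose by 1.35 and the dynein heavy chain *che-3* by 1.3. Of the 24, 7 lie on X. The summed level of the list was 189 to 272 CPM in *glp-1*-labelled and 85.2 to 170 CPM in wild type 25 C libraries. With all 36 libraries scaled together the median sum was 204 CPM in *glp-1*-labelled, 125 CPM in wild type 25 C and 166 CPM in wild type 20 C libraries, so the wild type 25 C libraries lay below those of wild type 20 C. The 13 general neuron genes showed 1 higher and none lower, with a median of 0.13.

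Neuropeptide genes were called about as often as genes in general. Of 96, 8 (8.33%) were higher and 11 (11.5%) lower, against 12% and 10.9% of all tested genes. *nlp-34*, an antimicrobial peptide gene of the epidermis, had 12.7 to 35.8 CPM in *glp-1*-labelled and 2.58 to 7.85 CPM in wild type 25 C libraries (log2 fold change 2.35 ± 0.32), *nlp-31* rose by 2.13 and *nlp-29* by 1.57, while *nlp-26* was called at -0.82 ± 0.19. *flp-33* fell by 1.51. Of 28 insulin-like peptide genes 4 (14.3%) were higher and 7 (25%) lower. *ins-6*, which promotes growth through the insulin receptor, had 0.487 to 0.804 CPM in *glp-1*-labelled and 1.97 to 2.92 CPM in wild type 25 C libraries (-1.80 ± 0.15), and *ins-24* fell by 2.1. *ins-20* had 15 to 78 counts in *glp-1*-labelled libraries and at most 1 count in wild type 25 C libraries. The number of insulin-like genes called higher fell to 1 or 2 when single libraries were left out (*glp-1*-labelled replicate 2, 4, 5 or 6, or wild type replicate 1, 5 or 6). For neuropeptides, leaving out wild type replicate 1, 3, 4 or 6 or *glp-1*-labelled replicate 1, 4 or 6 left 5 higher, while 6 or 7 were lower without wild type replicate 2 or 6 or *glp-1*-labelled replicate 1 or 6.

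Nuclear hormone receptors, a family of ligand-regulated transcription factors that is very large in worms, were called higher more often than lower. Of 196 tested, 60 (30.6%) were higher and 3 (1.53%) lower, against 12% and 10.9% of all tested genes. Their median log2 fold change was 0.34. *nhr-74* had 6.34 to 8.77 CPM in *glp-1*-labelled and 0.894 to 1.57 CPM in wild type 25 C libraries (log2 fold change 2.59 ± 0.15). Of the 60, 11 lie on X. Without wild type 25 C replicate 6, 39 were higher. Cytochrome P450 genes, which oxidise lipids and foreign compounds, showed 21 of 60 (35%) higher and none lower, with a median of 0.37. *cyp-33C2* and *cyp-13A12* had uneven levels. *cyp-13A12* was at 1.57 to 6.80 CPM in 4 *glp-1*-labelled libraries and at 56 and 24.4 CPM in replicates 5 and 6, against 1.41 to 1.84 CPM in wild type 25 C libraries. Its call (3.25 ± 0.79, adjusted p = 0.00583) was lost without either of these replicates, with 2.23 left without replicate 5 and 3.09 without replicate 6, and without any single wild type replicate.

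Conjugation and export genes split both ways. Of 37 glutathione S-transferase genes 9 (24.3%) were higher and 6 (16.2%) lower, against 12% and 10.9% of all tested genes. *gst-33* ran with *cyp-13A12*, at 74.1 and 29 CPM in *glp-1*-labelled replicates 5 and 6 and 2.16 to 6.62 CPM in the other 4, against 1.52 to 2.15 CPM in wild type 25 C libraries (log2 fold change 3.52 ± 0.79). Its call was lost without wild type replicate 2 or 6. *gst-24* and *gst-29* were more even and rose by 1.89 and 1.84. Of 62 UDP-glucuronosyltransferase genes 14 (22.6%) were higher and 10 (16.1%) lower. *ugt-26* had 32.8 to 47.1 CPM in *glp-1*-labelled and 99.1 to 127 CPM in wild type 25 C libraries (-1.54 ± 0.11). Of 53 ABC transporter genes 5 (9.43%) were higher and 9 (17%) lower, against 12% and 10.9% of all tested genes. All 5 that were higher lie on X. With total counts as the scale 9 were higher and 4 lower. The P-glycoproteins *pgp-6* and *pgp-5*, also on X, fell by 1.74 and 1.48.

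Effectors of innate immunity changed in both directions. Of 85 antimicrobial effector genes 24 (28.2%) were higher and 17 (20%) lower, against 12% and 10.9% of all tested genes. In the fit of all 36 libraries 15 were higher and 4 lower, and 10 were lower with total counts as the scale. The fit of all 36 holds an *osm-5*-labelled library with a sum of 35800 CPM for this list, where the median of its group is 4580 CPM. *dod-3*, found in screens below the insulin pathway, had 12.7, 17.6 and 21.8 CPM in *glp-1*-labelled libraries, against 0.218, 0.483 and 0.824 CPM in wild type 25 C libraries (log2 fold change 5.02 ± 0.28). *ilys-3*, an invertebrate-type lysozyme, had 6.70 to 11.3 CPM in *glp-1*-labelled and 0.290 to 0.792 CPM in wild type 25 C libraries (3.94 ± 0.22). *lys-7*, another lysozyme, rose by 1.7. *cnc-6*, a caenacin peptide, had 17 to 82 counts in *glp-1*-labelled libraries and at most 1 count in wild type 25 C libraries. *irg-1*, which responds to pathogens and to blocked translation, had 2.16 to 4.2 CPM in *glp-1*-labelled and 10.3 to 15.7 CPM in wild type 25 C libraries (-1.96 ± 0.17).

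Part of these differences had a counterpart in the wild type libraries. With all 36 libraries scaled together, *dod-3* had medians of 16.3 CPM in *glp-1*-labelled, 0.450 CPM in wild type 25 C and 8.38 CPM in wild type 20 C libraries. *ilys-3* had 9.04 CPM in *glp-1*-labelled, 0.596 CPM in wild type 25 C and 5.94 CPM in wild type 20 C libraries. *lys-7* had 251 CPM in *glp-1*-labelled, 71.5 CPM in wild type 25 C and 284 CPM in wild type 20 C libraries. The *glp-1*-labelled levels of *dod-3*, *ilys-3* and *lys-7* were thus nearer to wild type 20 C than to wild type 25 C. The same wild type 25 C libraries enter both contrasts. *cnc-6* had no such counterpart, with medians of 1.01 CPM in *glp-1*-labelled, 0 CPM in wild type 25 C and 0.0519 CPM in wild type 20 C libraries.

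The *pals* genes are a family induced by microsporidia and viruses in the intracellular pathogen response. Of these, 12 of 26 (46.2%) were higher and none lower, against 12% higher among all tested genes. Their median log2 fold change was 0.77. *pals-26* had 1.54 to 2.78 CPM in *glp-1*-labelled and 0.145 to 0.372 CPM in wild type 25 C libraries (log2 fold change 3.00 ± 0.24). It shares exon sequence with a same-strand neighbour. The summed level of the family overlapped between groups, at 55.8 to 77.2 CPM in *glp-1*-labelled and 43.5 to 70.8 CPM in wild type 25 C libraries. C-type lectins, many of them secreted by the gut, were near the background, with 12 of 125 higher and 14 lower, and 25 higher with total counts as the scale. *clec-61* rose by 2.91 and *clec-47* fell by 2.05. With all 36 libraries scaled together, medians were taken in *glp-1*-labelled, wild type 25 C and wild type 20 C libraries. *clec-61* had 5.16, 0.753 and 5.28 CPM in this order and *clec-47* had 17.3, 65.2 and 10.3 CPM. F-box genes had 24 of 148 (16.2%) higher and 18 (12.2%) lower, against 12% and 10.9% of all tested genes.

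Genes that handle metals held one of the steepest rises. *mtl-1* (WBGene00003473, V, 6691371 to 6691863), a metallothionein of the gut, had 3.50, 5.09, 2.17, 20.5, 3.99 and 7.18 CPM in *glp-1*-labelled replicates 1 to 6, against 0.399, 0.263, 0.174, 0.0484, 0.359 and 0.281 CPM in wild type 25 C replicates 1 to 6. *glp-1*-labelled replicate 4 stood far above the others, yet no libraries overlapped between groups, and the log2 fold change of 4.78 ± 0.61 (adjusted p = 6.2e-05) stayed at 4.10 or more when any library was left out. Of 23 tested metal genes 6 (26.1%) were higher and 1 (4.35%) lower, against 12% and 10.9% of all tested genes. The median log2 fold change of the metal list was -0.03. *ftn-1*, a ferritin of the intestine, had 4.78 to 6.20 CPM in *glp-1*-labelled and 0.522 to 1.28 CPM in wild type 25 C libraries (2.53 ± 0.21). The other metallothionein *mtl-2* had a log2 fold change of -0.66 ± 0.26 and the ferritin *ftn-2* of -0.12 ± 0.08, and neither was called. Of the pair of gene IDs that carry the name *numr-1*, WBGene00017270 rose by 3.10 and WBGene00017267 had -1.12 ± 0.42 and was not called. *cdr-4*, whose relatives respond to cadmium, was called at 0.83 ± 0.20, and this call was lost without any of 8 single libraries.

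Genes of fat metabolism changed one by one. *fat-7*, a stearoyl-CoA desaturase that makes oleate, had 6.36, 26.2 and 48.1 CPM in *glp-1*-labelled libraries, against 72.0, 117 and 165 CPM in wild type 25 C libraries (log2 fold change -2.12 ± 0.39). Its paralog *fat-6* had -0.06 ± 0.07 and was not called. Of 11 lipase genes 4 (36.4%) were higher and none lower, against 12% higher among all tested genes. The lysosomal lipases *lipl-1* and *lipl-2* rose by 2.12 and 2.53, with *lipl-2* at 7.11 to 26.9 CPM in *glp-1*-labelled and 2.15 to 2.87 CPM in wild type 25 C libraries. In wild type 20 C libraries *lipl-1* had a median of 30.6 CPM when all 36 libraries were scaled together, above the 10.2 CPM of *glp-1*-labelled and the 2.43 CPM of wild type 25 C libraries. *far-3*, a secreted fatty acid- and retinol-binding protein, had 15.9 to 40.1 CPM in *glp-1*-labelled and 2.66 to 3.89 CPM in wild type 25 C libraries (3.12 ± 0.20). Both lipases and *far-3* did not overlap between the groups.

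Enzymes that break down fatty acids and propionate changed in both directions. Of 23 mitochondrial beta-oxidation genes 6 (26.1%) were higher, 3 of them on X, and 6 (26.1%) lower. The shares among all tested genes were 12% and 10.9%. *acdh-8* fell by 1.12 and *ech-6*, which also serves the propionate shunt, by 0.67. In peroxisomes *acox-1.2*, an acyl-CoA oxidase of ascaroside synthesis, fell by 1.07. *hach-1* of the propionate shunt had 93.3 to 252 CPM in *glp-1*-labelled and 320 to 413 CPM in wild type 25 C libraries (log2 fold change -0.97 ± 0.19), while *pcca-1* and *pccb-1*, which begin the canonical propionate route, rose by 0.55 and 1.19, both on X. *ahcy-1*, the hydrolase of the methionine cycle, fell by 0.84. With all 36 libraries scaled together, medians were taken in *glp-1*-labelled, wild type 25 C and wild type 20 C libraries. *acox-1.2* had 23.2, 49.1 and 22.8 CPM in this order, *ech-6* 423, 658 and 329 CPM and *ahcy-1* 1620, 2900 and 1420 CPM. None of these was below its wild type 20 C median in *glp-1*-labelled libraries, while *acdh-8*, at 20.7, 47.4 and 36.3 CPM, was. Of 34 genes of glycolysis, gluconeogenesis and trehalose 5 (14.7%) were higher, 4 of them on X, and none lower. Of all tested genes, 12% were higher.

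Secreted and structural families differed among themselves. Transthyretin-like genes showed 26 of 55 (47.3%) higher and 4 (7.27%) lower, against 12% and 10.9% of all tested genes. Their median was 0.38, and *ttr-23* rose by 1.99. In the fit of all 36 libraries 3 transthyretin-like genes were higher. That fit holds an *osm-5*-labelled library with a sum of 28500 CPM for this list, where the median of its group is 1860 CPM. Histone genes showed 17 of 48 (35.4%) higher and none lower, with a median of 0.61. *his-32*, a histone H3 gene, had 2.64 to 6.44 CPM in *glp-1*-labelled and 0.193 to 0.824 CPM in wild type 25 C libraries (log2 fold change 3.43 ± 0.33). Histone genes are near-identical copies whose transcripts mostly lack a poly(A) tail, and the libraries were made from polyA RNA. The count fell to 10 or 11 without *glp-1*-labelled replicate 4 or 6 or wild type replicate 6. Of 174 cuticle collagens 9 were higher and 10 lower, fewer than the background, and of 22 molting genes 2 were higher. *dpy-14*, a collagen of young larvae, rose by 3.71, *col-95* by 1.83 and *col-7* fell by 1.25. With the molting level of each library in the fit 19 were higher and 74 lower. The gut protease *asp-1* fell by 0.71 and *bcf-1*, a gut protein that binds bacteria, by 1.1.

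The steepest single falls were of genes with little known function and of *sax-2*. *sax-2* (WBGene00004728, III, 5109701 to 5130676), the Furry homologue that shapes neurites, had 6.96, 8.01, 8.14, 7.66, 8.10 and 7.41 CPM in *glp-1*-labelled replicates 1 to 6, against 73.3, 110 and 149 CPM (lowest, median, highest) in wild type 25 C libraries. The log2 fold change was -3.83 ± 0.15 (adjusted p = 3.2e-09), 14.3-fold lower. With all 36 libraries scaled together its median was 7.27 CPM in *glp-1*-labelled, 63.4 CPM in *ife-2*-labelled, 138 CPM in *osm-5*-labelled, 105 CPM in *eat-2*-labelled, 103 CPM in wild type 25 C and 112 CPM in wild type 20 C libraries. Its partner kinase gene *sax-1*, on X, rose by 1.74.

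A set of 3 uncharacterised genes stood out for its spread in wild type. *D1014.6* had 0.0224 to 0.211 CPM in *glp-1*-labelled libraries, against 1.41, 16.1, 0.464, 22.1, 25.1 and 14.3 CPM in wild type 25 C replicates 1 to 6. *Y71G12B.18* and *BE0003N10.6* were low in the same wild type replicates 1 and 3, which also had the lowest molting sums, and their log2 fold changes were -6.94 ± 0.97, -6.06 ± 0.93 and -4.93 ± 0.68 in this order. With the molting level of each library in the fit, the log2 fold changes were -7.66 for *D1014.6*, -6.61 for *Y71G12B.18* and -5.24 for *BE0003N10.6*. Levels were also low in wild type 20 C libraries when all 36 libraries were scaled together. Medians in *glp-1*-labelled, wild type 25 C and wild type 20 C libraries were 0.0801, 14.4 and 0.549 CPM for *D1014.6*. They were 0.14, 13.6 and 1.12 CPM for *Y71G12B.18* and 1.29, 48.9 and 3.13 CPM for *BE0003N10.6*. For all 3 genes the *osm-5*-labelled and *ife-2*-labelled medians were below that of wild type 25 C, and the *eat-2*-labelled median was above it. *ZC317.7* and *K09C6.9* fell by 5.96 and 4.10 and were at 6.31 to 13.8 CPM and 9.24 to 13.4 CPM in wild type 25 C libraries.

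Among the steepest rises, *C07G1.7*, *spig-5* and *srlf-34* had log2 fold changes of 6.53 ± 0.57, 5.99 ± 0.20 and 4.18 ± 0.15. *spig-5* had 13.2 to 18.3 CPM in *glp-1*-labelled and 0.128 to 0.372 CPM in wild type 25 C libraries. *srlf-34* had 14.5 to 25.0 CPM in *glp-1*-labelled and 0.841 to 1.35 CPM in wild type 25 C libraries, and its medians in the other 4 groups lay between 0.950 and 1.80 CPM when all 36 libraries were scaled together. For *C07G1.7* the median was 7.88 CPM in *glp-1*-labelled, 0.0631 CPM in wild type 25 C and 16.1 CPM in wild type 20 C libraries. *C07G1.7* was thus higher still in wild type 20 C.

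**Figure D5:**
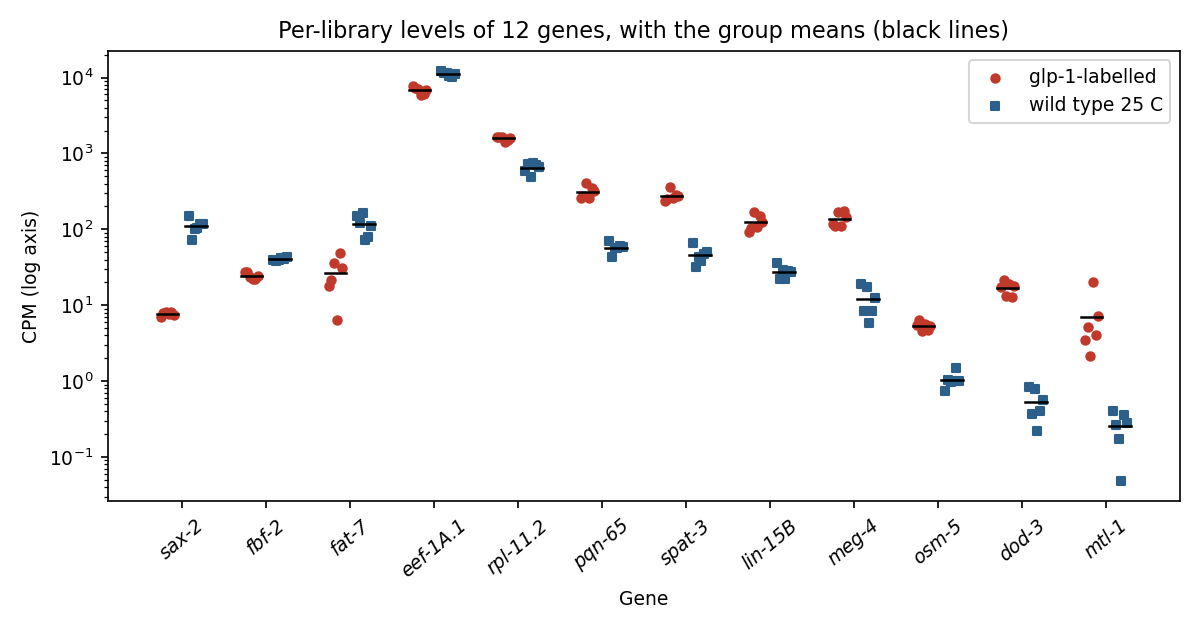
CPM (log axis) of 12 genes in the 6 glp-1-labelled (red circles) and 6 wild type 25 C (blue squares) libraries, with group means as black lines. The sax-2 levels of 6.96 to 8.14 CPM in glp-1-labelled libraries lie below the 73.3 to 149 CPM of wild type 25 C, and for all 12 genes the groups do not overlap.

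The change under the *glp-1* label was compared with that under the *ife-2* label in a fit of 24 libraries, *ife-2*-labelled against wild type 20 C. The effects differed for 12281 of 17226 genes (71.3%) by the test of the difference itself. All 24 germ line genes differed, each with the *glp-1*-labelled effect higher, since their median log2 fold change was -7.62 under the *ife-2* label. For 183 of the 200 X genes low in *ife-2*-labelled worms, and for 5102 of 5170 autosomal ones, the effects differed. The median difference was 4.56 on the log2 scale for the X genes and 3.33 for the autosomal ones. Both classes were picked by the *ife-2*-labelled change that is subtracted here, from the same libraries. Their counts and median differences thus follow largely from that choice and are not a test of these classes. Of 69 mitochondrial ribosomal genes only 31 differed, with a median of -0.34 under the *ife-2* label, so the list was lower under both labels. Of 46 cilia genes 22 differed, 21 with the *glp-1*-labelled effect higher, and their median was 0.15 under the *ife-2* label. Temperature and the wild type libraries also differ between these contrasts and cannot be told apart from the label.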

How the data were processed

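Whole-worm RNA counts of 36 libraries were used as deposited. Per the labels and the methods of the study, the authors trimmed reads with cutadapt, aligned them with STAR to Ensembl WBcel235 (release 90) for quality checks, and made gene counts from Salmon estimates collapsed with tximport; versions, and whether strand was used, are not given in the sources used here. The deposited counts are whole numbers. A gene and its antisense or near-identical neighbour can share reads, and *glp-1*, *fbf-1*, *nos-3*, *daf-19*, *che-3*, *nhr-74*, *far-3*, *pccb-1*, *gas-1*, *eef-1A.1*, *flp-33*, *srlf-34* and *F39C12.1* overlap an antisense gene. All 36 libraries were run over 3 flowcells, each holding all of them. For all its assays, the paper states that biological replicates were drawn from independent populations on separate days. The labels do not state this for these libraries, so p-values measure the spread between these samples, which may be technical.

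Genes that reached 10 counts in 6 or more of 12 libraries were tested with edgeR 4.0.16 (R 4.3.3, limma 3.58.1), by quasi-likelihood fits after TMM scaling, and called where the p adjusted by Benjamini-Hochberg was under 0.01. In a simulation of this comparison on 16513 genes with 200 changed, 74% of 2-fold and 96% of 4-fold changes were recovered. CPM use the TMM scale of the 12 libraries; levels in all 6 groups use a separate scale of 36. Names come from Ensembl release 115 for 45842 of 46093 IDs. The class of a gene in *ife-2*-labelled worms needed an adjusted p below 0.01 and at least a 2-fold change in a fit of *ife-2*-labelled and wild type 20 C libraries alone. Same-numbered samples do not deviate together, so numbers were not used as pairs.

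Named genes were *glp-1* and *mtl-1*; up to 3 largest rises and falls per list among called protein-coding members with a median of at least 1 CPM in the higher group; the 8 largest rises and falls at 5 CPM or more without overlap; the 6 largest gains and losses of mean CPM; members of the Notch, yolk and metal lists; and 2 genes of each of the 6 name prefixes most often called. Other genes, among them *meg-2*, *meg-3*, *meg-4*, *lin-15A*, *lin-15B*, *csb-1*, *acly-1*, *lsd-1*, *hil-3*, *her-1*, *dpy-27*, *daf-19*, *che-3*, *rpl-11.1*, *pgl-1*, *rme-2*, *lys-7*, *sax-1*, *fat-6*, the *mes* genes and *ins-20*, were chosen after their values were seen. The comparison, the 50 lists and the tests were chosen with earlier results of these data known, and 3 lists were added after values had been seen. Alternatives were DESeq2 1.42.0, 3 other scalings, no filter on low counts, a replicate block, one fit of all 36 libraries, other thresholds and leaving out each library.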

Additional observations from a re-analysis of the deposited data

Results flagged for a closer look

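Of 178 groups of 6 libraries checked for a library standing apart from the rest, 7 were marked, where chance marks about 1 in 20. These were *mtl-1* in *glp-1*-labelled replicate 4 (20.5 CPM), *gst-33* in *glp-1*-labelled replicate 5 (74.1 CPM), *ttr-23* in *glp-1*-labelled replicate 4 (4.33 CPM) and in wild type 25 C replicate 2 (1.24 CPM), *osm-5* in wild type 25 C replicate 5 (1.5 CPM), *clec-47* in wild type 25 C replicate 3 (122 CPM) and *C07G1.7* in wild type 25 C replicate 5 (0.336 CPM). In each case except *gst-33* the call held when any library was left out.

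The effect under the *glp-1* label differed from that under the *ife-2* label, by the test of the difference, for 12281 of 17226 genes (71.3%). Among them were 24 germ line genes, 27 of 29 oocyte and eggshell genes, 90 of 92 sperm genes, 183 of 200 X genes low in *ife-2*-labelled worms, 31 of 69 mitochondrial ribosomal genes and 22 of 46 cilia genes. The mitochondrial ribosomal and cilia lists thus differed less often than genes in general. The X genes were picked by their *ife-2*-labelled change, which enters this test, so their count was largely set by that choice.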

How the results depend on the processing

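Against 1978 genes higher and 1797 lower (52.4% higher), total counts as the scale gave 3160, 857 and 78.7%, an adjusted p of 0.05 gave 3076 and 2873, at least a 2-fold change gave 869, 284 and 75.4%, and the molting level as a covariate, chosen after seeing the data, gave 3330 and 3431. Leaving out single libraries gave 1546 to 1832 higher, 1340 to 1784 lower and 50.3% to 53.6% higher. DESeq2, DESeq2 size factors, scaling by upper quartiles, testing without the filter and the fit of all 36 libraries kept both counts within 1.5 times. The replicate block gave 1332 higher and 1163 lower. With it, 26 of 196 nuclear hormone receptor genes and 10 of 60 cytochrome P450 genes were higher, where the fit without it gave 60 and 21. The replicate numbers do not pair the samples, with correlations of same-numbered samples from -0.64 to 0.55, and not every sample correlated best with its own number. Of the counts per list, 43 moved by over 1.5 times with total counts as the scale, 39 with the molting covariate, 32 in the fit of all 36 libraries and 23 with the block. No named gene that was called changed direction. The count of genes whose effect differed between the *glp-1* and *ife-2* labels was 12281, with 11275 by total counts and 13386 at an adjusted p of 0.05. The causes of these shifts were not tested.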

Other observations

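Genes read in every library of one label and almost not in the other were few. Their lack of overlap between the groups follows from the filter on low counts and is not a separate finding. A tested gene below the filter's minimum in all libraries of a label must reach it in every library of the other label. At most 3 counts in every wild type 25 C library, and thus no overlap, were found for 11 protein-coding genes and 4 pseudogenes. Among these, *ZK177.9*, on chromosome II, had 96 to 365 counts in *glp-1*-labelled and 1 to 3 in wild type 25 C libraries. In the other direction, 1 protein-coding gene, *Y102A5C.36*, had 0 counts in all *glp-1*-labelled and 27 to 48 counts in wild type 25 C libraries, and it lies on chromosome V beside the 2 pseudogenes of the same kind. These genes were picked after their values had been seen, and no cause was tested.

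Around *glp-1* itself, 209 tested genes start within 500000 bases on either side, of which 15 (7.18%) were higher and 34 (16.3%) lower, with a median log2 fold change of -0.02. Chromosome III as a whole had 6.56% higher and 14.4% lower.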
